A study of Mus musculus with 12 samples.

Results

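Immediate early genes and feedback regulators of mitogen-activated protein kinase (MAPK) signaling were examined as a set of 32 genes in mouse cardiac fibroblasts with and without Smad7. Members were taken by gene name according to known roles, and the rule has no cutoff on a measured value. They were chosen with earlier results of these data known, so the set is not independent of the data. The set held 6 dual-specificity phosphatases (Dusp1, Dusp4, Dusp5, Dusp6, Dusp8, Dusp10), 3 Sprouty genes (Spry1, Spry2, Spry4), 3 Spred genes (Spred1, Spred2, Spred3), the Ets factors Etv4 and Etv5, 3 Egr genes (Egr1, Egr2, Egr3), 7 Fos and Jun genes (Fos, Fosb, Fosl1, Fosl2, Jun, Junb, Jund), and Ier2, Ier3, Myc, Phlda1, Atf3, Maff, Nr4a1 and Nr4a2. All 32 were found among the 35275 genes of the deposited count table, and all 32 passed the filter on low counts that kept 15150 genes for testing.

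Growth factors, cytokines and stress activate the ERK, JNK and p38 kinases, and within minutes to hours the immediate early genes are transcribed without a need for new protein. Many of them encode transcription factors such as Fos, Jun and Egr1. A second kind, the dual-specificity phosphatases and the Sprouty and Spred proteins, acts back on the same kinases or on the steps between receptor and Ras, so that their transcripts are often read as a record of recent kinase activity. TGF-β1 signals mainly through Smad2 and Smad3, also activates MAPKs in fibroblasts, and induces Smad7, an inhibitory Smad.

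RNA-Seq was performed on poly(A) RNA of cultured cardiac fibroblasts in 4 groups with 3 libraries each. The cells came from hearts of 12-week-old C57BL/6 mice that carry a floxed Smad7 gene in every group, and were used at passage 2. Control cells received a control adenovirus, which is given as GFP-expressing in the sample labels and as empty in the methods of the study, and Smad7-KO cells received an adenovirus expressing Cre recombinase, each at 100 MOI for 48 hours. Cells of each kind were then left unstimulated or given TGF-β1 at 10 ng/ml, for 2 hours by one label field and for 4 hours by the treatment protocol, so the time after stimulation is not certain. Loss of Smad7 and any effect of Cre itself in place of GFP cannot be told apart in this design. No source says whether the libraries of a group came from separate cultures or animals, so p-values measure the spread between libraries, which may be technical. That spread was estimated over all 12 libraries together, so it is not the spread of the compared groups alone. A pairwise comparison of 3 libraries with 3 cannot give a two-sided exact permutation p under 0.1, and tests were therefore taken from a fit across all genes.

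Total counts were 19056916 to 25371321 per library. Smad7 was at 74.4 ± 2.94 CPM (read counts scaled to library size, normalized by TMM; SD, n = 3) in control cells without TGF-β1 and at 29.4 ± 1.48 CPM (SD, n = 3) in the matching Smad7-KO cells, or 39.5% of the control level, and at 52.7% of it with TGF-β1. Cells that kept the gene and exons outside the deleted stretch cannot be told apart as the source of those reads. The fibroblast markers were present (10 markers with a summed 10491 to 14006 CPM over all libraries), and so were macrophage markers, at 14578 to 23341 CPM over the 9 markers found, with Lyz2 at group means of 9689 to 14324 CPM. The macrophage sum was above the fibroblast sum in every library, so the values describe whole cultures and not fibroblasts alone. Cardiomyocyte markers summed to 18.5 to 77.9 CPM and smooth muscle and pericyte markers to 10.3 to 29.9 CPM. The spread between replicate libraries, as a biological coefficient of variation, was 0.335 and 0.137 in control cells without and with TGF-β1, and 0.0530 and 0.0998 in Smad7-KO cells. The shared estimate does not follow these differences between groups. At an adjusted p of 0.05 or less (edgeR), 3907 genes passed for unstimulated Smad7-KO against control cells, and 660 on only the libraries compared. With TGF-β1 these numbers were 1962 and 4453. Unstimulated control library 2 stood apart, with relatively more counts on short genes (slope of -0.40 log2 CPM per doubling of gene length, against -0.14 to 0.14 in the other libraries). Libraries 2 and 3 of that group also lay farthest from their group mean, with an SD of the deviations over all genes of 0.572 and 0.489 on the log2 scale, against 0.208 to 0.271 in the other 10.

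In unstimulated cells, Smad7-KO cultures had lower transcript levels of 10 of the 32 genes and higher levels of 1. Those that fell were Nr4a1, Egr1, Dusp5, Dusp10, Jund, Etv4, Ier3, Maff, Dusp1 and Myc, with log2 fold changes from -1.33 (Nr4a1) to -0.63 (Myc), and Dusp6 rose by 0.38. Of all 15150 genes tested, 13.7% fell and 12.1% rose. The median log2 fold change was -0.32 over the set and -0.02 over all tested genes, and 22 of the 32 values were below 0. Changes were called by the quasi-likelihood test of edgeR where the p-value, adjusted by Benjamini-Hochberg over all 15150 genes, was at most 0.05. Single libraries moved the count. Without unstimulated control library 3 it was 17 of 32, where 51.5% of all genes passed, a share close to that of the members. Without unstimulated Smad7-KO library 1 or 2 it was 7 and 6, where 10.6% and 9.90% of all genes passed.

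In cells given TGF-β1, the same comparison showed 9 of the 32 genes lower and 1 higher in Smad7-KO cultures. The genes that fell were Nr4a1, Ier3, Dusp10, Maff, Etv4, Dusp8, Dusp1, Dusp5 and Myc, and Dusp6 again rose. Among all genes tested 7.23% fell and 5.72% rose. The median over the set was -0.32 and over all genes -0.02, with 24 of 32 values below 0. Without TGF-β1 Smad7-KO library 1 the count dropped to 6, where 6.07% of all genes passed. These libraries are separate from the unstimulated ones, although the spread was estimated from all 12 together. In both comparisons Dusp1, Dusp5, Dusp6, Dusp10, Etv4, Ier3, Myc, Maff and Nr4a1 passed the threshold, 9 genes in all, and each moved in the same direction. The share of all tested genes that passed in both was not computed, so this count has no background to stand against.

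TGF-β1 changed 5 members in control and 7 in Smad7-KO cells. In control cells 4 rose, Egr2, Ier3, Junb and Spry1, and Dusp1 fell, where 5.04% of all genes rose and 3.33% fell. In Smad7-KO cells 4 rose, Junb, Egr1, Egr2 and Ier3, and 3 fell, Dusp1, Spred1 and Etv5, where 5.33% of all genes rose and 4.90% fell. The medians over the set were 0.11 in control and 0.12 in Smad7-KO cells, against -0.03 and -0.01 over all genes. Without unstimulated control library 2 or 3 the counts in control cells were 9 and 8, where 10.9% and 22.3% of all genes passed, so the second lay close to its background. In Smad7-KO cells, leaving out unstimulated control library 2 gave 11 members, where 16.3% of all genes passed. The number was 4 without unstimulated Smad7-KO library 2 or 3 or TGF-β1 Smad7-KO library 3, where 6.61%, 6.51% and 6.96% of all genes passed. The 15 members that passed in none of the 4 comparisons were Dusp4, Spry2, Spry4, Spred2, Spred3, Egr3, Fos, Fosb, Fosl1, Fosl2, Jun, Ier2, Phlda1, Atf3 and Nr4a2.

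**Figure D1:**
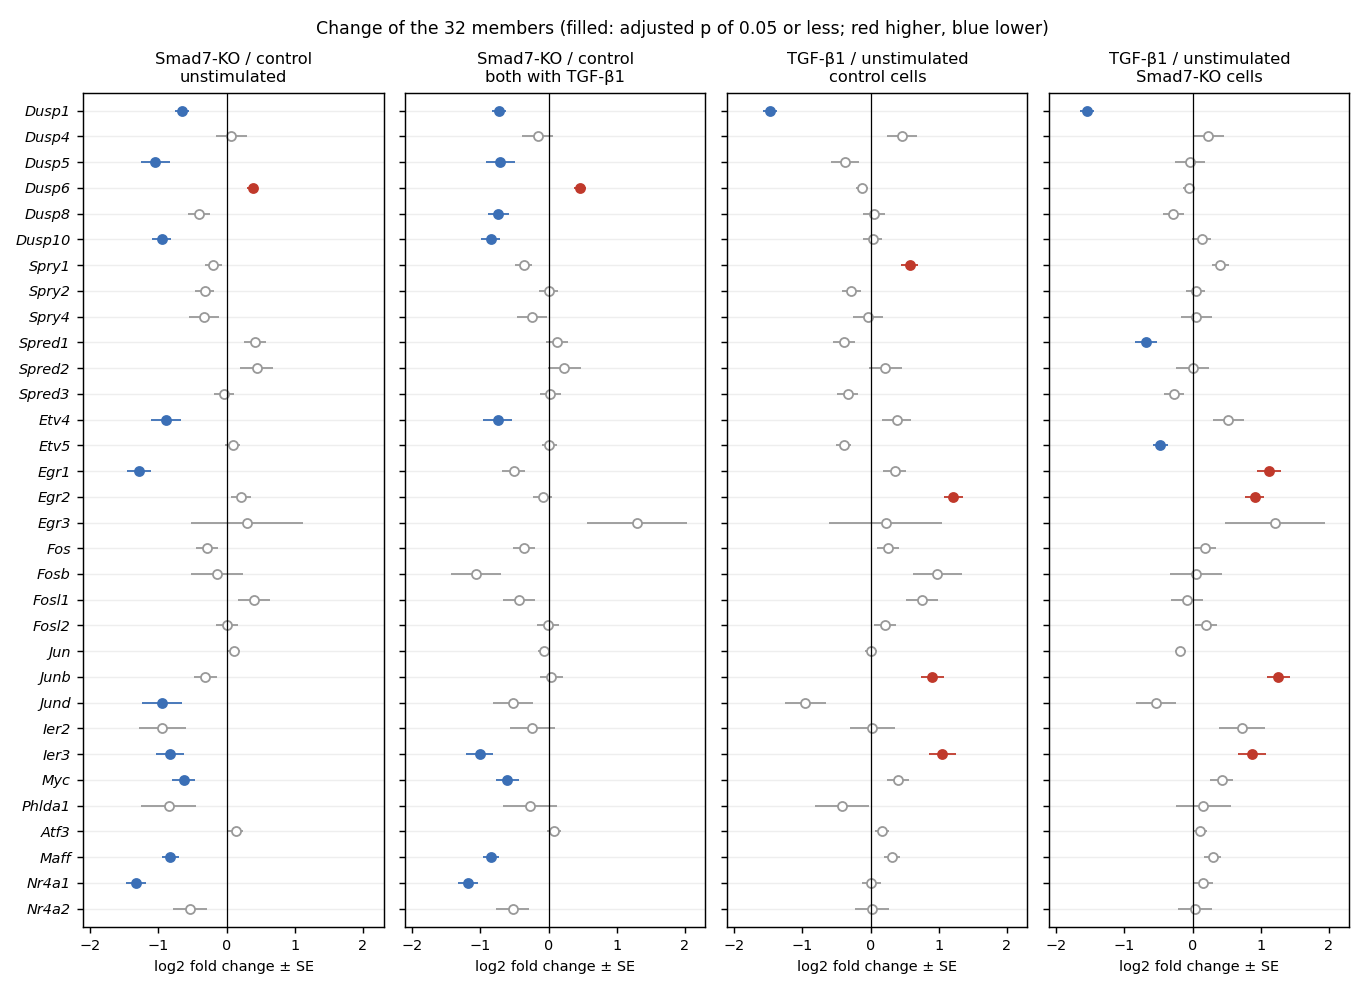
Log2 fold change with its standard error (horizontal axis) of each of the 32 genes (rows) in the 4 comparisons, from edgeR on all 12 libraries. Filled points passed an adjusted p of 0.05, 10 lower and 1 higher in unstimulated Smad7-KO against control cells, 9 lower and 1 higher with TGF-β1, 4 higher and 1 lower with TGF-β1 in control cells, and 4 higher and 3 lower with TGF-β1 in Smad7-KO cells.

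Markers of other cell types moved with the Smad7-KO comparisons. The 10 endothelial markers summed to 273 to 319 CPM (unstimulated) and 282 to 322 CPM (TGF-β1) in control libraries, against 48.8 to 58.6 and 45.6 to 47.0 CPM in the Smad7-KO libraries. Of the 9 endothelial markers tested, 6 fell in each Smad7-KO comparison and Vwf rose, and Cldn5 had no reads in TGF-β1 Smad7-KO libraries. The macrophage markers summed to 14822 to 23341 CPM and 14578 to 16919 CPM in the control groups and to 21229 to 23340 CPM and 20355 to 22921 CPM in the Smad7-KO groups, and 5 of 9 rose in each comparison. Of the 10 fibroblast markers, Thy1, Tcf21 and Vim fell (by 1.55, 1.30 and 0.75 unstimulated) and Lum and Dcn rose (by 0.80 and 0.28) in both comparisons. Of the 4 cardiomyocyte markers tested, Tnnt2 and Tnni3 fell in unstimulated cells, by 1.37 and 1.12, and 0 passed with TGF-β1, with sums of 34.0 to 77.9 and 28.6 to 33.2 CPM in control and 18.5 to 25.2 and 18.8 to 21.6 CPM in Smad7-KO libraries. Smooth muscle and pericyte markers summed to medians of 22.2 and 29.1 CPM in control and of 13.5 and 16.7 CPM in Smad7-KO libraries without and with TGF-β1, with no overlap between control and Smad7-KO sums, and of the 5 tested Cspg4 fell in both comparisons and Des in unstimulated cells. Every Smad7-KO result given here stands beside these shifts, and their part in it was not tested. In such bulk samples, fewer cells of a type and less RNA per cell cannot be told apart.

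Promoter sequences are shown for 4 of the members that fell in both Smad7-KO comparisons, so that the letters upstream of these genes can be read beside their values. There were 8 such genes, 6 of them (Dusp1, Dusp5, Dusp10, Ier3, Maff, Nr4a1) with a promoter window in the RefSeq table of GRCm38.p6, and 4 of those 6 held a searched motif. The windows of Dusp10 and Ier3 held none of the motifs and are not printed. The motifs were the CArG box, bound by serum response factor, the cyclic AMP response element TGACGTCA, the AP-1 element TGANTCA and the Smad-binding element CAGACA, read on both strands from 250 bases before to 50 bases after the start site. Capitals mark the motifs, positions count back from the RefSeq start site, and each line starts at position -250. The Dusp1, Dusp5 and Nr4a1 lines end 1 base before the deposited gene model, at -48, -37 and -1. The Maff line ends at -1, just before the RefSeq start site, and the deposited Maff model starts farther downstream, at base 79347541. The Dusp1 line covers chr17:26508520-26508722 on the minus strand, the Dusp5 line chr19:53528895-53529108, the Maff line chr15:79347270-79347519 and the Nr4a1 line chr15:101266596-101266845, the last 3 on the plus strand.
Dusp1: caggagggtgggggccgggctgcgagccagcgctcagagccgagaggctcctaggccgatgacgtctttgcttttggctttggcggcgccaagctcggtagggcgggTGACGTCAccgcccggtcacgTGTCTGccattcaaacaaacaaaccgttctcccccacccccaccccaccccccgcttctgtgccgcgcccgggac
Dusp5: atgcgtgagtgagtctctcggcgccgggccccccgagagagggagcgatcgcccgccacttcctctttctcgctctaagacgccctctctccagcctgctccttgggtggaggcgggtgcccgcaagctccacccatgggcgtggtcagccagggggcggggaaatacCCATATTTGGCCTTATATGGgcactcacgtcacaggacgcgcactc
Maff: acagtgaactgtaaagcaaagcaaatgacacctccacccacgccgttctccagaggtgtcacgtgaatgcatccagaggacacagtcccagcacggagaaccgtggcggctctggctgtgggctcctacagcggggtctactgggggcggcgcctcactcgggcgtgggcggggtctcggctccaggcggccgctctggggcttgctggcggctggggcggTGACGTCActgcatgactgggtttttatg
Nr4a1: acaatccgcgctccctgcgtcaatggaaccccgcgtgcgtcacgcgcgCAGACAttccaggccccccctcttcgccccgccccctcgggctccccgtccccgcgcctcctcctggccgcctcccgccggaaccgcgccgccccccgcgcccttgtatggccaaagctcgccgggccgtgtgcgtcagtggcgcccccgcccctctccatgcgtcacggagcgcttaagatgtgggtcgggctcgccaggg

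The Dusp1 window held TGACGTCA at -143 and the reverse complement of CAGACA at -122, and the Dusp5 window held adjoining CArG boxes at -82 and -72. Maff had TGACGTCA at -29 and Nr4a1 had CAGACA at -202. Of all 32851 RefSeq windows of this length, 1.63% held a CArG box, 1.79% TGACGTCA, 7.81% TGANTCA and 21.0% CAGACA. Among the 23 members with a window, 1 held a CArG box (Dusp5), 3 held TGACGTCA (Dusp1, Dusp8, Maff), 2 held CAGACA (Dusp1, Nr4a1) and 0 held TGANTCA. No window was found for Dusp4, Spry4, Etv4, Egr1, Egr3, Fosl1, Ier2, Myc and Phlda1. A match describes the letters and is not evidence of binding.

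Dusp1, a nuclear phosphatase that acts on p38, JNK and ERK, passed in all 4 comparisons. It was at 70.5, 78.4 and 69.0 CPM unstimulated and 24.4, 28.3 and 25.6 CPM with TGF-β1 in control cells and, in the same order, 43.2, 49.4 and 45.3 CPM and 16.8, 15.3 and 15.1 CPM in Smad7-KO cells. None of the 4 groups overlapped with another, unstimulated control being highest and stimulated Smad7-KO lowest. TGF-β1 lowered Dusp1 by 1.48 on the log2 scale in control cells (SE 0.10, adjusted p = 4.95e-06, edgeR) and by 1.55 in Smad7-KO cells (SE 0.10, adjusted p = 3.12e-06, edgeR), which is 2.79-fold and 2.92-fold. Smad7-KO cells were lower by 0.66 unstimulated (SE 0.10, adjusted p = 0.00153, edgeR) and by 0.73 with TGF-β1 (SE 0.10, adjusted p = 0.00119, edgeR). The difference between both Smad7-KO effects was -0.07 (SE 0.14, unadjusted p = 0.64, edgeR).

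Dusp6, a cytoplasmic phosphatase selective for ERK, was the only member that passed the threshold as higher in Smad7-KO cells. Spred1 and Spred2 had larger unstimulated values, 0.41 and 0.44, that did not pass (adjusted p = 0.0741 and 0.18, edgeR). The values of Dusp6 were 91.8, 83.0 and 90.8 CPM in unstimulated control and 114, 118 and 113 CPM in unstimulated Smad7-KO libraries, then, with TGF-β1, 83.3, 81.1 and 78.8 CPM in control and 114, 114 and 105 CPM in Smad7-KO libraries. Every Smad7-KO library was above every control library. The rise was 0.38 on the log2 scale in unstimulated cells (SE 0.09, adjusted p = 0.0106, edgeR) and 0.46 with TGF-β1 (SE 0.09, adjusted p = 0.00542, edgeR). Without unstimulated Smad7-KO library 2 the first of these had an adjusted p of 0.0507 (edgeR), and on only the unstimulated libraries it had one of 0.106 (edgeR). Its TGF-β1 values, -0.13 in control and -0.05 in Smad7-KO cells, did not pass.

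Dusp10, which acts on JNK and p38, was at 11.2, 12.7 and 10.9 CPM in unstimulated control and 5.50, 6.61 and 5.86 CPM in unstimulated Smad7-KO libraries, and at 11.5, 13.0 and 10.98 CPM and 7.50, 6.15 and 6.04 CPM with TGF-β1. Smad7-KO and control libraries did not overlap in either state, and neither TGF-β1 comparison passed. The log2 fold changes of Smad7-KO against control were -0.95 (SE 0.14, adjusted p = 0.00121, edgeR) and -0.85 (SE 0.14, adjusted p = 0.00265, edgeR). A gene on the other strand, 1700056E22Rik, overlaps Dusp10, with 7 to 31 counts per library against 111 to 320 for Dusp10.

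Dusp5, a nuclear phosphatase selective for ERK, had low levels of 4.71, 5.54 and 3.33 CPM unstimulated and 3.19, 3.78 and 3.45 CPM with TGF-β1 in control cells and, in the same order, 1.83, 2.36 and 2.34 CPM and 2.07, 2.08 and 2.22 CPM in Smad7-KO cells. Smad7-KO libraries were the lower ones in both states. Its log2 fold change was -1.04 unstimulated (SE 0.21, adjusted p = 0.00612, edgeR) and -0.71 with TGF-β1 (SE 0.21, adjusted p = 0.0462, edgeR). On only the unstimulated libraries the first value had an adjusted p of 0.0706 (edgeR). The second value held in only 2 of the 12 fits that left out a library, those without unstimulated control library 2 or 3, and was lost in the other 10, where the adjusted p (edgeR) was 0.0568 to 0.178.

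Dusp8, a phosphatase of JNK and p38, read 24.2, 17.5 and 27.1 CPM in unstimulated control and 17.7, 15.6 and 18.8 CPM in unstimulated Smad7-KO libraries, which overlapped. With TGF-β1 it read 27.0, 22.4 and 22.0 CPM in control and 14.2, 14.7 and 13.9 CPM in Smad7-KO libraries, which did not overlap. It passed with TGF-β1 only (log2 fold change -0.74, SE 0.16, adjusted p = 0.0110, edgeR), and lay at -0.41 unstimulated (adjusted p = 0.0733). The difference of -0.33 between those effects had an unadjusted p of 0.162 (edgeR). Without TGF-β1 Smad7-KO library 1 the adjusted p with TGF-β1 was 0.0503. Dusp4, a nuclear phosphatase of ERK and JNK, ranged from 22.8 to 57.6 CPM over the 12 libraries and passed in no comparison.

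Per gene length, Dusp1 and Dusp6 were the most abundant of the 6 phosphatases in unstimulated control cells, at 31.1 ± 0.0261 and 31.5 ± 3.71 FPKM (SD, n = 3). The ratio of Dusp6 to Dusp1 FPKM was 1.01 ± 0.120 (SD, n = 3) there and 2.58 ± 0.229 with TGF-β1, and in Smad7-KO cells it was 2.08 ± 0.101 and 5.86 ± 0.269. This ratio was chosen after the values were seen and carries no test. The summed FPKM of the 6 phosphatases ranged from 67.5 ± 3.03 in TGF-β1 Smad7-KO to 86.4 ± 9.57 in unstimulated control libraries (SD, n = 3). Dusp1 made up 36.3% of that sum without and 16.5% with TGF-β1 in control cells and, in the same order, 24.4% and 9.91% in Smad7-KO cells, while Dusp6 made up 36.5%, 42.3%, 50.8% and 57.9% in the same order.

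**Figure D2:**
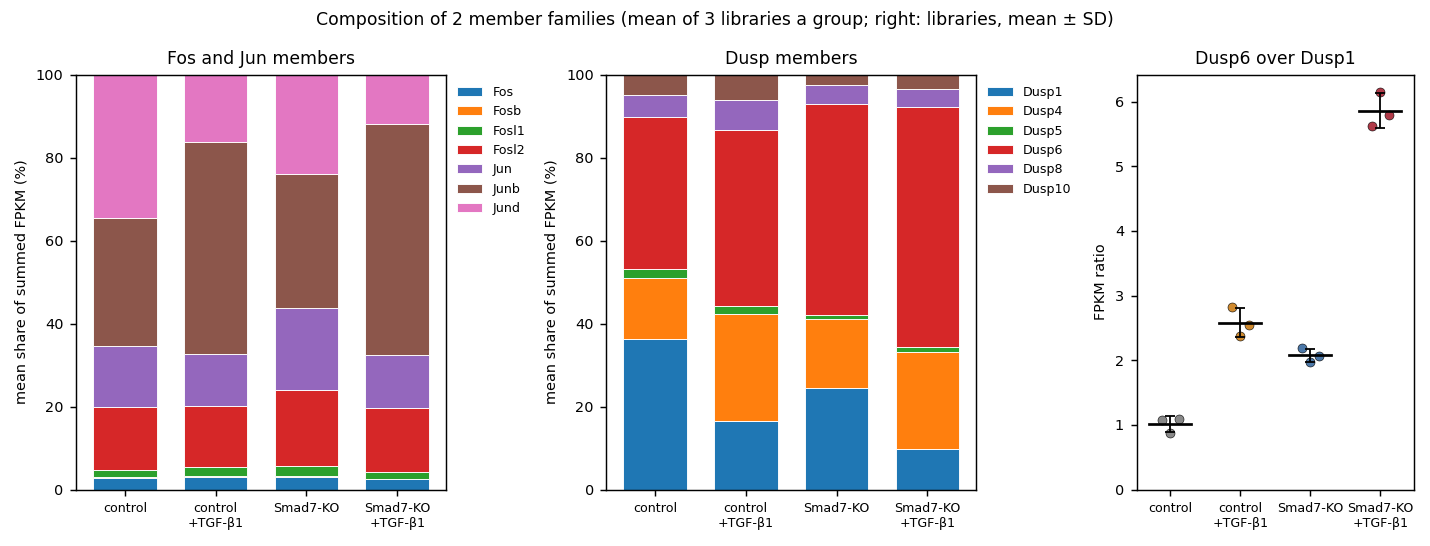
Mean share of each gene in the summed FPKM of the 7 Fos and Jun members (left) and the 6 Dusp members (middle) in each group of 3 libraries, and the ratio of Dusp6 to Dusp1 FPKM in each library with mean and SD (right). With TGF-β1, Junb makes up 51.1% and 55.6% of the Fos and Jun sum, Dusp1 is at 9.91% of the Dusp sum in Smad7-KO cells, and the mean ratio spans 1.01 to 5.86.

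The Sprouty and Spred genes, inhibitors of the path from receptor tyrosine kinases to ERK, passed in few comparisons. Spry1 was at 34.7, 48.7 and 41.8 CPM in unstimulated control and 57.4, 64.0 and 65.1 CPM in TGF-β1 control libraries, and at 36.9, 33.5 and 38.7 CPM and 46.9, 50.04 and 47.7 CPM in the corresponding Smad7-KO libraries. TGF-β1 libraries lay above unstimulated ones in both kinds of cells. The rise of 0.58 in control cells passed (SE 0.12, adjusted p = 0.0119, edgeR) and the value of 0.41 in Smad7-KO cells did not (SE 0.12, adjusted p = 0.0602, edgeR), while the difference between them was -0.17 (unadjusted p = 0.354). Without TGF-β1 control library 3 the adjusted p in control cells was 0.0565 (edgeR).

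Spry2 was at 29.2, 34.6 and 26.7 CPM unstimulated and 22.6, 27.0 and 24.8 CPM with TGF-β1 in control cells and, in the same order, 21.8, 25.2 and 25.2 CPM and 22.0, 24.0 and 28.5 CPM in Smad7-KO cells. Its unstimulated groups did not overlap, but the log2 fold change of -0.33 did not pass (adjusted p = 0.0896, edgeR). Spry4 read 7.08, 7.83 and 10.2 CPM unstimulated and 10.2, 6.06 and 8.21 CPM with TGF-β1 in control cells and, in the same order, 6.29, 6.18 and 7.42 CPM and 6.26, 8.60 and 5.85 CPM in Smad7-KO cells, and its groups overlapped in all 4 comparisons. Spred1 was at 119 ± 28.4, 91.1 ± 12.5, 159 ± 12.0 and 99.0 ± 5.62 CPM (SD, n = 3), the first pair being control without and with TGF-β1 and the second Smad7-KO. It fell with TGF-β1 in Smad7-KO cells (log2 fold change -0.68, SE 0.16, adjusted p = 0.0178, edgeR), and this call was lost without unstimulated Smad7-KO library 2 or 3 or without any of the 3 TGF-β1 Smad7-KO libraries (adjusted p 0.0502 to 0.081, edgeR). Spred2, with group means of 21.6 to 29.4 CPM, and Spred3, with group means of 13.4 to 16.9 CPM, passed in no comparison.

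Etv4 and Etv5, Ets factors whose transcription follows ERK activity in many tissues, moved differently. Etv4 was at 6.53 ± 1.53 CPM in unstimulated control and 3.49 ± 0.464 CPM in unstimulated Smad7-KO libraries, and at 8.47 ± 0.915 and 5.05 ± 1.2 CPM with TGF-β1 (SD, n = 3). It fell in Smad7-KO cells by 0.89 (SE 0.22, adjusted p = 0.0166, edgeR) and by 0.75 with TGF-β1 (SE 0.21, adjusted p = 0.0409, edgeR). The first call was lost without unstimulated Smad7-KO library 1 or 2 (adjusted p = 0.0693 and 0.0525, edgeR), and the second held in 3 of the 12 fits that left out a library, those without unstimulated control library 2 or 3 or TGF-β1 Smad7-KO library 3, with an adjusted p (edgeR) of 0.0537 to 0.158 in the others. Etv5, the more abundant per length in unstimulated control cells (20.8 ± 3.69 against 2.68 ± 0.457 FPKM, SD, n = 3), lay within 0.09 of control in both Smad7-KO comparisons. It fell with TGF-β1 in Smad7-KO cells by 0.47 (SE 0.11, adjusted p = 0.0190, edgeR), and its value in control cells, -0.40, had an adjusted p of 0.054 (edgeR). The call in Smad7-KO cells was lost without any of the 3 unstimulated Smad7-KO libraries or TGF-β1 Smad7-KO library 1 or 3 (adjusted p 0.0599 to 0.0812, edgeR).

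Egr1, a zinc finger transcription factor induced by ERK through serum response factor, was at 48.6, 48.9 and 45.5 CPM unstimulated and 59.0, 60.2 and 63.5 CPM with TGF-β1 in control cells and, in the same order, 13.1, 22.7 and 22.9 CPM and 41.0, 44.6 and 42.2 CPM in Smad7-KO cells. All 4 groups were separate, with unstimulated Smad7-KO lowest and TGF-β1 control highest. Smad7-KO cells were lower by 1.28 unstimulated (SE 0.17, adjusted p = 0.000779, edgeR), a 2.43-fold difference, and the value with TGF-β1, -0.51, did not pass (SE 0.17, adjusted p = 0.0686, edgeR). TGF-β1 raised Egr1 by 1.12 in Smad7-KO cells (SE 0.17, adjusted p = 0.00128, edgeR), and the value in control cells was 0.35 (SE 0.17, adjusted p = 0.272, edgeR). The difference between the Smad7-KO effects was 0.77 (SE 0.24) with an unadjusted p of 0.00839 and an adjusted p of 0.98 (edgeR), so it did not pass over all genes.

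Egr2, a relative of Egr1, was at 5.83, 5.94 and 6.96 CPM in unstimulated control and 15.2, 13.9 and 14.5 CPM in TGF-β1 control libraries, and at 6.54, 7.94 and 7.24 CPM and 11.5, 15.3 and 14.1 CPM in Smad7-KO libraries. TGF-β1 libraries were the higher ones in both kinds of cells, and control and Smad7-KO cells overlapped in both states. The rise was 1.22 in control (SE 0.14, adjusted p = 0.000201, edgeR) and 0.91 in Smad7-KO cells (SE 0.14, adjusted p = 0.00120, edgeR). Egr3 passed the filter on 0 to 34 counts per library, with group means of 0.285 to 0.866 CPM, and its log2 fold changes in the 4 comparisons had standard errors of 0.73 to 0.82.

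Nr4a1, an orphan nuclear receptor induced by many stimuli, had the largest fall of the 32 genes in Smad7-KO cells in both states. It was at 12.0, 14.6 and 13.2 CPM in unstimulated control and 4.66, 4.98 and 6.16 CPM in unstimulated Smad7-KO libraries, and at 12.0, 13.7 and 14.5 CPM and 5.94, 6.29 and 5.33 CPM with TGF-β1. Control and Smad7-KO libraries were far apart, and neither TGF-β1 comparison passed. The log2 fold changes were -1.33 (SE 0.15, adjusted p = 0.000222, edgeR) and -1.19 (SE 0.15, adjusted p = 0.000583, edgeR). Its relative Nr4a2 had group means of 1.86 to 2.75 CPM, with Smad7-KO values of -0.54 and -0.53 that did not pass (adjusted p = 0.117 and 0.182, edgeR).

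The Fos and Jun genes encode subunits of the AP-1 transcription factor, and of the 7 Junb was the one that passed in a TGF-β1 comparison. Junb was at 94.9, 128 and 76.3 CPM in unstimulated control and 164, 203 and 192 CPM in TGF-β1 control libraries, and at 72.1, 86.0 and 82.2 CPM and 183, 183 and 208 CPM in Smad7-KO libraries. Stimulated libraries were above unstimulated ones throughout. TGF-β1 raised it by 0.90 in control (SE 0.17, adjusted p = 0.00542, edgeR) and by 1.26 in Smad7-KO cells (SE 0.17, adjusted p = 0.000531, edgeR). The difference between these was 0.35 (unadjusted p = 0.163), and the Smad7-KO values were -0.32 unstimulated and 0.04 with TGF-β1, neither of which passed.

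Fos was at 9.91, 11.4 and 10.1 CPM unstimulated and 11.5, 12.1 and 13.8 CPM with TGF-β1 in control cells and, in the same order, 6.49, 9.53 and 9.67 CPM and 10.1, 10.1 and 8.96 CPM in Smad7-KO cells. Its groups did not overlap in 3 of the 4 comparisons, yet none of its log2 fold changes, from -0.36 to 0.25, passed (adjusted p 0.159 to 0.666, edgeR). Jun lay between 71.8 and 87.2 CPM over the 12 libraries, with log2 fold changes of -0.18 to 0.11 that did not pass. A gene on the other strand, Junos, overlaps Jun with 14 to 63 counts, and reads of both cannot be told apart without strand. Fosb, at group means of 1.12 to 2.45 CPM, and Fosl2, at 146 to 168 CPM, also passed nowhere. Fosl1 was at 4.28 ± 0.312 CPM unstimulated and 7.23 ± 1.37 CPM with TGF-β1 in control cells, which did not pass (SD, n = 3; adjusted p = 0.0819, edgeR), and the difference of its Smad7-KO effects, -0.83, had an unadjusted p of 0.0294.

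Jund fell in unstimulated Smad7-KO cells by 0.94 (SE 0.29, adjusted p = 0.0393, edgeR), but its unstimulated control libraries read 160, 280 and 101 CPM, against 90.5, 91.1 and 99.5 CPM in Smad7-KO libraries. The highest of these was library 2, the library with more counts on short genes. Without it the log2 fold change was -0.47 (adjusted p = 0.112, edgeR), and the call held in 3 of the 12 fits that left out a library, those without unstimulated control library 3 or TGF-β1 control library 1 or 2, with an adjusted p (edgeR) of 0.0529 to 0.112 in the others.

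Per gene length, Junb and Jund were the most abundant AP-1 transcripts in unstimulated control cells, at 53.3 ± 10.3 and 60.9 ± 26.6 FPKM (SD, n = 3), and Fosb the least, at 0.326 ± 0.0795 FPKM. Junb made up 31.0% ± 1.03 of the summed FPKM of the 7 genes in unstimulated control and 32.1% ± 1.60 in unstimulated Smad7-KO libraries (SD, n = 3). With TGF-β1 its share was 51.1% ± 2.48 and 55.6% ± 1.36, whereas that of Jund went from 34.4% ± 9.30 and 24.0% ± 1.19 to 16.2% ± 2.27 and 12.0% ± 1.38 (SD, n = 3). The share of Fos was 2.48% to 2.99% in the 4 groups. These shares were chosen after the values were seen and are given without a test.

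Maff, a small Maf protein that pairs with other basic leucine zipper factors, was the most abundant member per length in unstimulated control cells, at 84.2 ± 6.78 FPKM (SD, n = 3). It was at 165, 188 and 142 CPM in unstimulated control and 92.5, 86.3 and 99.9 CPM in unstimulated Smad7-KO libraries, and at 196, 217 and 203 CPM and 113, 102 and 127 CPM with TGF-β1. No Smad7-KO library reached a control library. Its log2 fold changes were -0.83 (SE 0.12, adjusted p = 0.00130, edgeR) and -0.85 (SE 0.12, adjusted p = 0.00138, edgeR). TGF-β1 libraries also lay above unstimulated ones in both kinds of cells, by 0.32 and 0.30, without passing (adjusted p = 0.159 and 0.188, edgeR).

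Ier3, an early response gene linked to cell survival, was at 74.9, 104 and 56.1 CPM unstimulated and 148, 193 and 145 CPM with TGF-β1 in control cells and, in the same order, 43.6, 45.2 and 43.2 CPM and 77.4, 70.5 and 93.2 CPM in Smad7-KO cells. It was lower in Smad7-KO cells and higher with TGF-β1, and stimulated Smad7-KO libraries overlapped unstimulated control libraries. The Smad7-KO values were -0.83 (SE 0.20, adjusted p = 0.0156, edgeR) and -1.01 (SE 0.20, adjusted p = 0.00780, edgeR), and the TGF-β1 values 1.05 in control (SE 0.20, adjusted p = 0.00640, edgeR) and 0.87 in Smad7-KO cells (SE 0.20, adjusted p = 0.0168, edgeR). Ier3 is the shortest member, at 1131 bases, and with each library's trend on gene length removed its unstimulated Smad7-KO value was -0.32 (adjusted p = 0.00972, edgeR). In the fit that keeps the length trend, the unstimulated call was lost without any of the 3 unstimulated Smad7-KO libraries (adjusted p 0.0524 to 0.0584, edgeR), and the TGF-β1 call in Smad7-KO cells was lost without any of those 3 or TGF-β1 Smad7-KO library 3 (adjusted p 0.0581 to 0.0806, edgeR).

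Myc, a transcription factor of growth, was at 30.5, 40.7 and 27.9 CPM in unstimulated control and 19.3, 23.0 and 21.6 CPM in unstimulated Smad7-KO libraries, and at 41.9, 44.3 and 44.7 CPM and 22.7, 33.7 and 29.7 CPM with TGF-β1. Smad7-KO libraries were below control libraries in both states. It fell by 0.63 (SE 0.17, adjusted p = 0.0219, edgeR) and by 0.61 with TGF-β1 (SE 0.17, adjusted p = 0.0332, edgeR). The first call was lost without any of the 3 unstimulated Smad7-KO libraries (adjusted p 0.0524 to 0.0858, edgeR), and the second held in 4 of the 12 fits that left out a library, those without unstimulated control library 2 or 3, unstimulated Smad7-KO library 1 or TGF-β1 Smad7-KO library 2, with an adjusted p (edgeR) of 0.0501 to 0.131 in the others.

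Atf3, a stress-induced factor of the ATF family, was among the more abundant members, at 44.8 ± 7.18 FPKM in unstimulated control cells (SD, n = 3), and did not pass in any comparison. It was at 102, 82.5 and 83.5 CPM unstimulated and 103, 97.2 and 99.1 CPM with TGF-β1 in control cells and, in the same order, 90.8, 104 and 97.8 CPM and 106, 102 and 108 CPM in Smad7-KO cells. Its log2 fold changes lay between 0.08 and 0.16 (adjusted p 0.347 to 0.709, edgeR). Ier2, at group means of 15.1 to 29.6 CPM, and Phlda1, at 3.85 to 7.03 CPM, were highest in unstimulated control library 2 (48.2 and 12.0 CPM). Their unstimulated Smad7-KO values of -0.94 and -0.85 did not pass (adjusted p = 0.0588 and 0.123, edgeR).

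**Figure D3:**
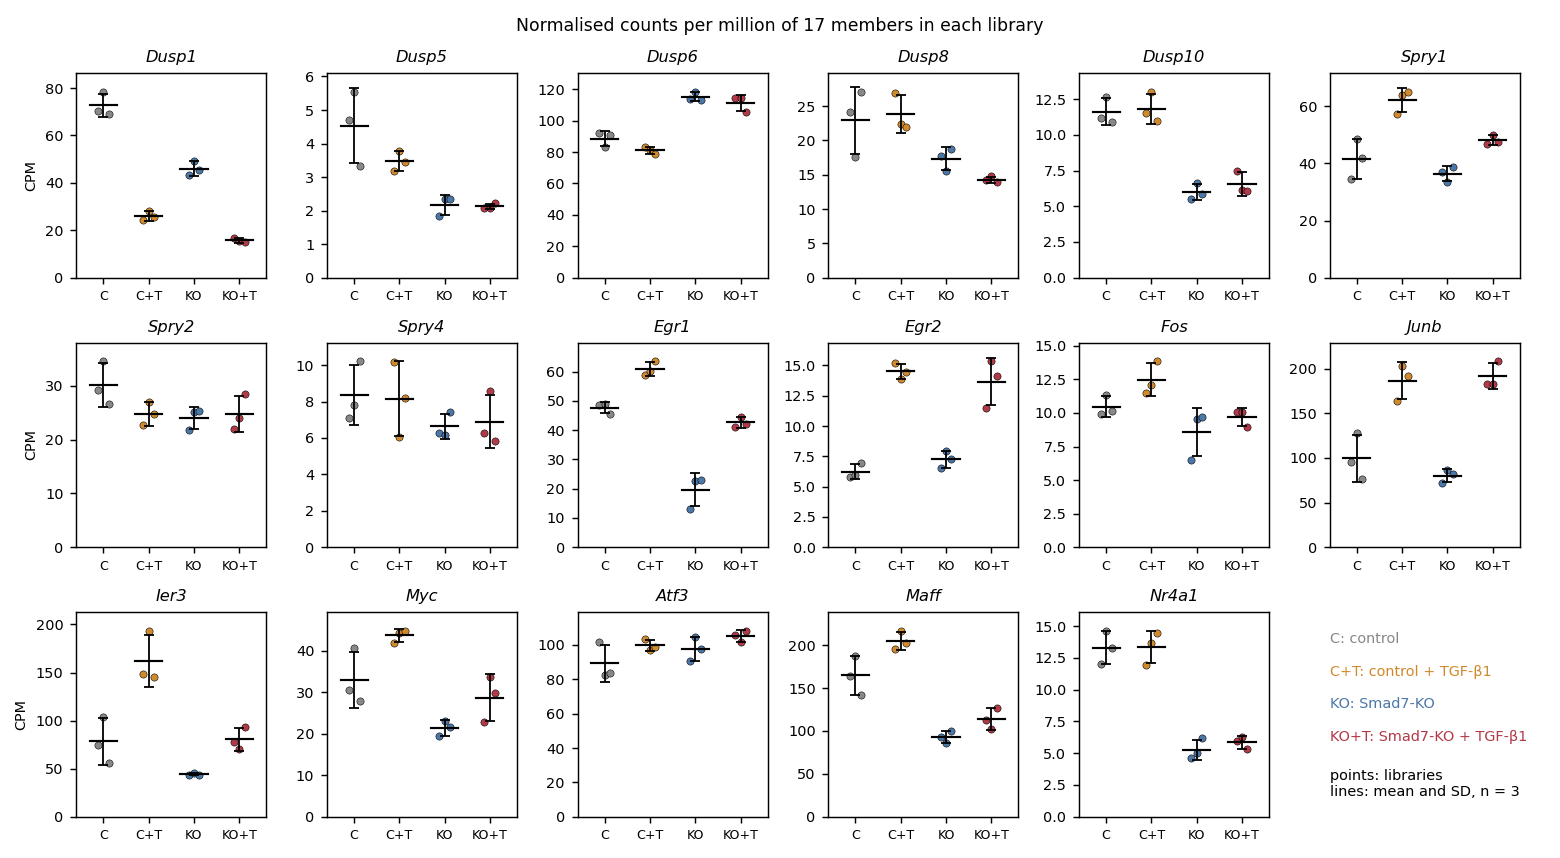
CPM (vertical axis, from 0) of 17 members in each of the 3 libraries of the 4 groups, with mean and SD. Dusp1 spans 78.4 to 15.1 CPM with 4 groups that do not overlap, Dusp6 is above 105 CPM in all Smad7-KO libraries and below 92 CPM in all control libraries, and Nr4a1 is at 4.66 to 6.29 CPM in Smad7-KO against 12.0 to 14.6 CPM in control libraries.

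The effect of Smad7 loss was not shown to depend on TGF-β1 for any member. The difference between the Smad7-KO effects with and without TGF-β1 passed an adjusted p of 0.05 for 0 of the 32 members in edgeR, against 0.0198% of all genes (3 of 15150). At an unadjusted p under 0.05 there were 2 members in edgeR, Egr1 and Fosl1. Ordered by p over all 15150 genes they ranked 71 and 213, so many genes outside the set had smaller p-values. DESeq2 also gave 0 members past the adjusted threshold and 2 at an unadjusted p under 0.05. With a library left out there were 0 members past the adjusted threshold in each of the 12 fits and 1 to 8 at an unadjusted p under 0.05, the 8 without unstimulated control library 3. The number of all genes at that unadjusted p was not computed for DESeq2 or for these 12 fits.

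Calls in unstimulated cells differed with gene length. Among the 5058 shortest tested genes, up to 2250 bases, 22.0% fell in unstimulated Smad7-KO cells, against 5.62% of the 5050 longest. The median length of the members was 2756.5 bases and that of all tested genes 3007. Of the members in the short, middle and long class, 2 of 10, 7 of 14 and 1 of 8 fell, where 13.6% of all genes of the middle class fell. With TGF-β1 the shares of all genes that fell were 7.65%, 9.16% and 4.89% from the short to the long class, and 2, 6 and 1 members fell. With the length trend of each library removed, 15 members passed in unstimulated cells, including all of the original 11, and 13 with TGF-β1, including all of the original 10, where 29.5% and 23.3% of all genes passed.

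The next 3 lists hold other genes of these pathways, and their counts stand against the shares of all genes given above (12.1% higher and 13.7% lower in unstimulated Smad7-KO cells, 5.72% and 7.23% with TGF-β1). Of 28 ERK cascade genes tested outside the set, 9 rose and 2 fell in unstimulated Smad7-KO cells, and 3 rose and 0 fell with TGF-β1, with medians of 0.14 and 0.11. Grb2, the adaptor that links receptors to Sos, rose from 172 ± 6.6 to 242 ± 6.71 CPM (SD, n = 3; log2 fold change 0.50, adjusted p = 0.00222, edgeR) and by 0.29 with TGF-β1 (adjusted p = 0.0344, edgeR). The kinase gene Rps6ka3 rose by 0.79 and the Ras GTPase activator Rasa1 by 0.55 in unstimulated cells, and Mknk2 rose by 0.58 with TGF-β1 (adjusted p = 0.0144, 0.0245 and 0.0378, edgeR). These genes were long, with a median of 4314 bases and 17 of 28 in the long class, of which 21.4% rose among all genes in unstimulated cells, and with the length trend removed 7 rose and 5 fell. Over the 20 alternative fits the number that rose in unstimulated cells went from 0 to 12. It was 0 on only the libraries of the comparison, where 4.54% of all genes passed in either direction. Among the fits that left out a library it was lowest, 1, without unstimulated Smad7-KO library 2 (9.90% of all genes passed). It was highest, 12, without unstimulated control library 3 (51.5% passed). With TGF-β1 the number that rose was 0 in 8 of those 12 fits, where 5.70% to 10.2% of all genes passed. These 8 were the fits without TGF-β1 control library 2 or 3 or any of the 6 Smad7-KO libraries. The rises of Grb2 and Mknk2 with TGF-β1 were lost in those 8. The number was 9 without unstimulated control library 2 (28.8% passed). TGF-β1 raised the Ets factor Elk3 by 0.92 in control and by 1.19 in Smad7-KO cells, lowered the adaptor Gab1 by 0.85 and 0.95, raised the kinase Rps6ka1 by 0.59 in control cells and lowered Mknk1 by 0.86 in Smad7-KO cells (adjusted p = 0.00783 or less, edgeR). In all, 3 of the 28 rose and 2 fell with TGF-β1 in control cells, and 2 rose and 3 fell in Smad7-KO cells. Without unstimulated control library 3, 8 rose in control cells, where 22.3% of all genes passed.

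In the JNK and p38 cascade 23 genes were tested. In unstimulated Smad7-KO cells 4 rose and 6 fell, and with TGF-β1 3 rose and 4 fell. With a library left out, 1 to 8 rose and 4 to 7 fell in unstimulated cells. The extremes of the rises were without unstimulated Smad7-KO library 3 and unstimulated control library 3, where 9.90% and 51.5% of all genes passed. With TGF-β1 1 to 4 rose and 1 to 5 fell. There was 1 in each direction without TGF-β1 control library 2 or TGF-β1 Smad7-KO library 1, where 5.70% and 6.07% of all genes passed. Gadd45b, a stress sensor upstream of both kinases, fell from 46.1 ± 7.91 to 24.8 ± 1.19 CPM unstimulated and from 93.3 ± 12.5 to 46.1 ± 4.43 CPM with TGF-β1 (SD, n = 3; log2 fold changes -0.89 and -1.02, adjusted p = 0.00201 and 0.00112, edgeR). Mapk12, a p38 isoform, fell by 1.19 and 0.95, and Map3k1 rose by 1.21 and 0.87. TGF-β1 raised Gadd45b (1.02 in control, 0.89 in Smad7-KO cells) and Map3k5 (0.66 and 0.89), and lowered the scaffold Mapk8ip1 by 0.60 in control and the p38 target Mapkapk2 by 0.59 in Smad7-KO cells. In these comparisons 2 rose and 3 fell in control, and 2 rose and 5 fell in Smad7-KO cells. With a library left out these were 2 to 4 and 1 to 5 in control cells, and 2 to 3 and 2 to 6 in Smad7-KO cells. The 4 and 5 in control cells came without unstimulated control library 3, where 22.3% of all genes passed. In Smad7-KO cells 2 fell without unstimulated Smad7-KO library 1 or 3 or TGF-β1 Smad7-KO library 1 or 3. Of all genes 6.34% to 6.96% passed in those fits.

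Another 28 immediate early and feedback genes outside the set were tested. In unstimulated Smad7-KO cells 2 rose and 7 fell, and with TGF-β1 1 rose and 7 fell. With a library left out, 0 to 7 rose and 4 to 8 fell in unstimulated cells. The 7 rises came without unstimulated control library 3 (51.5% of all genes passed) and the 4 falls without unstimulated Smad7-KO library 2 (9.90% passed). With TGF-β1 0 to 2 rose and 5 to 8 fell with a library left out, where 5.70% to 28.8% of all genes passed. Hbegf, a ligand of the EGF receptor, fell from 27.7 ± 3.80 to 11.6 ± 2.92 CPM unstimulated and from 119 ± 6.28 to 51.4 ± 3.35 CPM with TGF-β1 (SD, n = 3; log2 fold changes -1.25 and -1.21, adjusted p = 0.000626 and 8e-04, edgeR). Csrnp1 and Jdp2 fell by 1.18 and 0.66 unstimulated, and Cited2 and the small Maf gene Mafk by 0.79 and 0.60 with TGF-β1. TGF-β1 raised Hbegf (2.1 in control, 2.14 in Smad7-KO cells) and the cytokine Lif (1.98 and 1.79), and lowered Sik1 by 1.06 in control and Cited2 by 0.81 in Smad7-KO cells. In all, 4 rose and 2 fell in control, and 3 rose and 3 fell in Smad7-KO cells. Without unstimulated control library 3 the rises in control cells numbered 7, where 22.3% of all genes passed. Without unstimulated control library 2 those in Smad7-KO cells numbered 7, where 16.3% of all genes passed.

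**Figure D4:**
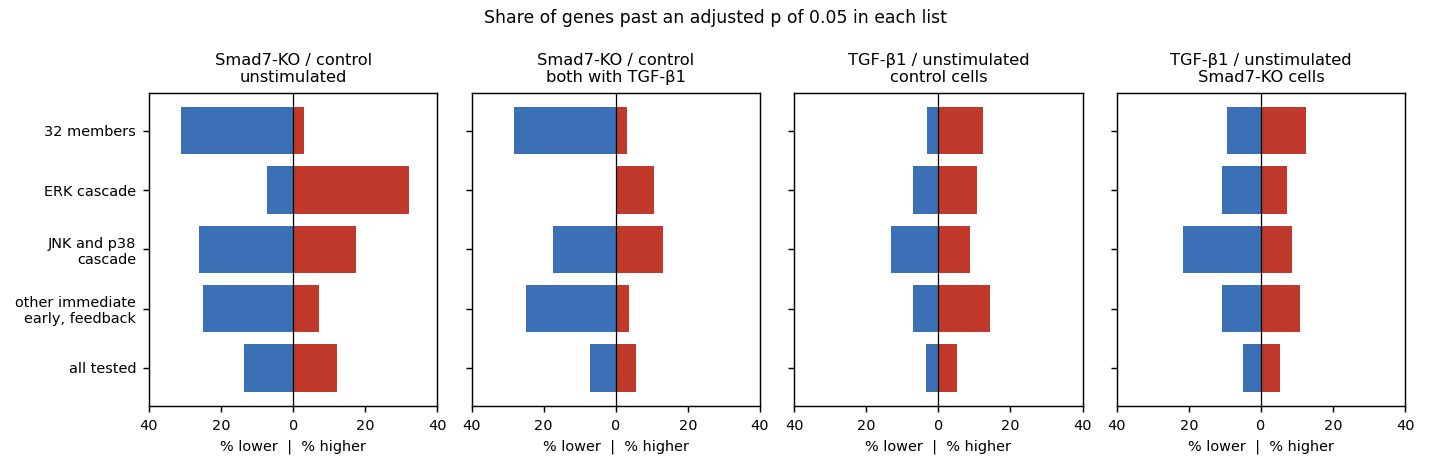
Share of genes (%) lower (left, blue) and higher (right, red) at an adjusted p of 0.05 or less for the 32 members, 3 companion lists and all 15150 genes tested, in each of the 4 comparisons. Of the members 31.25% and 28.1% fall in the Smad7-KO comparisons, where 13.7% and 7.23% of all genes fall, and the ERK cascade has 9 genes higher and 2 lower in unstimulated cells. Members and lists were chosen with earlier results of these data known.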

How the data were processed

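RNA-Seq libraries, 12 in 4 groups, were analysed. The authors deposited read counts per gene, as whole numbers without normalization, and FPKM values, which equalled count over gene length and library total in all 423300 gene and library values within 0.1%. The submitters' processing notes name CASAVA, TopHat2 2.0, Cufflinks 2.1.1 and HTSeq 0.6.1 and the builds mm10 and GRCm38.p6. Libraries were made with a NEBNext Ultra kit, and use of strand in counting is not given in the sources used here, so overlapping genes are uncertain. Total counts of 19056916 to 25371321 per library and the spread between libraries both limit the precision.

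Counts were fitted with edgeR 4.0.16 in R 4.3.3 (filterByExpr with a minimum count of 10, TMM scaling, robust quasi-likelihood fit, group means model over all 12 libraries, Benjamini-Hochberg adjustment over 15150 genes, threshold 0.05). The paper used DESeq2, which is an alternative here. The standard error is the log2 fold change over the root of F, and CPM are scaled by TMM. Alternatives were DESeq2 1.42.0, its size factors in edgeR, only the libraries of a comparison, no count filter, limma 3.58.1 voom with a variance factor per condition, the replicate number as a block, removal of each library's loess trend on gene length (span 0.3) and leaving out each library. The block together with the length trend was added after seeing the data. Scripts were tested on simulated data.

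The 32 members, the companion and marker lists, the tests and the naming rule were chosen with earlier results of these data known. All members are named with their level. Values in every library are given for the 12 members with the smallest adjusted p among those past the threshold without overlap, and for Dusp6, Spry2, Spry4, Egr1, Fos, Junb, Myc and Atf3. From each companion list up to 3 genes a comparison are named. Of these, 1 gene of the ERK cascade that this rule names is not reported here. Promoter windows, 250 bases before to 50 after the start, came from RefSeq on GRCm38.p6, matched by symbol and taken nearest to the deposited gene start for 23 of 32 members.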

Additional observations from a re-analysis of the deposited data

How the results depend on the processing

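Of the 33 calls made for members over the 4 pairwise comparisons, 33 kept their direction in all 20 alternative fits and 17 also passed the threshold in all 20. The number of members past the threshold moved by over 1.5 times as follows. In unstimulated Smad7-KO against control cells, main value 11, it was 5 with only the libraries of the comparison, where 4.54% of the genes tested passed. Dusp5, Dusp6, Etv4, Jund, Ier3 and Myc were lost there, with an adjusted p of 0.0706 to 0.138 (edgeR). With a library left out the number was 6 to 17, where 9.90% and 51.5% of the genes tested passed. With TGF-β1, main value 10, the number was 6 to 13 with a library left out, where 6.07% and 28.8% of the genes tested passed. For TGF-β1 in control cells, main value 5, the number was 8 with DESeq2, where 10.2% of the genes tested passed. It was 2 with only the libraries of the comparison (2.69% of the genes tested), where Spry1, Junb and Ier3 were lost. It was 11 with the length trend removed (15.1%) and 10 with the replicate block and the length trend together (13.5%). With a library left out it was 4 to 9, where 5.31% and 10.9% of the genes tested passed. For TGF-β1 in Smad7-KO cells, main value 7, the number was 13 with only the libraries of the comparison, where 26.3% of the genes tested passed. It was 13 with limma voom (24.9% of the genes tested), 12 with the length trend removed (17.3%) and 11 with block and trend together (15.8%). With a library left out it was 4, where 6.51% to 6.96% of the genes tested passed, to 11, where 16.3% passed. The median over the members was -0.22 in unstimulated Smad7-KO cells without unstimulated control library 2, and 0.21 for TGF-β1 in control cells without unstimulated control library 3. The causes were not tested. Fits with a library left out or on only 6 libraries hold fewer samples. On only 6 libraries the number fell in both comparisons with unstimulated control cells, from 11 to 5 and from 5 to 2. It rose from 10 to 13 for Smad7-KO with TGF-β1 and from 7 to 13 for TGF-β1 in Smad7-KO cells. The biological coefficient of variation was 0.335 in unstimulated control cells and 0.0530 to 0.137 in the other groups. Its part in these moves was not tested. Over the 20 alternatives the number of all genes that passed ranged from 660 to 7979 in unstimulated Smad7-KO against control cells (main value 3907), from 883 to 4924 with TGF-β1, from 391 to 3449 for TGF-β1 in control cells, from 985 to 3792 for TGF-β1 in Smad7-KO cells and, over 19 alternatives, from 0 to 14 for the difference of the Smad7-KO effects (main value 3).

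Libraries of the same replicate number had correlations of their deviations from -0.36 to 0.52. Correlations between libraries of different number were not computed, so whether the numbers pair the libraries was not tested. With the replicate block the numbers of members past the threshold were 10, 9, 5 and 7 in the 4 pairwise comparisons. Of all genes 21.3%, 10.7%, 7.31% and 8.73% passed there, in the same order. For the difference of the Smad7-KO effects 0 members and 0 of all genes passed. The calls lost were Jund in unstimulated cells (adjusted p = 0.0556, edgeR) and Dusp5 with TGF-β1 (adjusted p = 0.0662, edgeR). The difference of the Smad7-KO effects needs all 4 groups, so the fit on only the libraries of a comparison was not run for it.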
